A study of Mus musculus with 18 samples.

Results

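Transcripts of 8 genes through which B cells signal to T cells were followed in bulk RNA-Seq of B cells, as the named set *Cd40*, *Cd80*, *Cd86*, *Icosl*, *Tnfsf9*, *Cd274*, *Pdcd1lg2*, and *Tgfb1*. They are 8 of the 55491 genes in the deposited count table, and they were chosen by name as costimulatory or inhibitory T cell ligands, although earlier results of these data were known. All 8 passed the filter on low counts in every comparison. Female BALB/cJ mice, 10 to 12 weeks old in the labels, were sensitized i.p. with 20 μg of the allergen ovalbumin (OVA) and 1 mg alum on days 0 and 14. On days 28 and 42 they received an i.v. dose of 100 μL PBS, 100 μg soluble OVA, or 2.5 mg OVA NPs, which are nanoparticles that encapsulate OVA. On day 44, B cells of spleen and Peyer's patches were purified with magnetic beads that hold back other cells, and 3 libraries were sequenced for each of the 6 combinations of tissue and treatment, 18 in all. All of these mice were sensitized, so PBS controls are sensitized mice that received no OVA after day 14.

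A B cell that presents antigen gives a T cell signals in addition to the peptide. CD80 and CD86 engage CD28 to costimulate the T cell and engage CTLA-4 to restrain it, ICOSL engages ICOS on T follicular helper cells, and 4-1BBL engages 4-1BB. CD40 works in the other direction, since it receives CD40L from the helper T cell and activates NF-κB in the B cell, which is known to raise CD80, CD86, and other activation molecules. PD-L1 and PD-L2 engage PD-1 and inhibit T cells, and TGF-β1 is a secreted cytokine that can induce regulatory T cells and, in the gut, switching to IgA. Peyer's patches hold germinal centers that persist in response to gut microbes, whereas germinal centers of the spleen form mainly after immunization or infection.

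Levels are given in CPM, a gene's counts scaled to the size of its library, after TMM normalization over the 18 libraries, and levels of different genes are compared only as CPM per kb of exon. A gene was called a DEG when edgeR's quasi-likelihood test gave a Benjamini-Hochberg adjusted p below 0.05 and the log2 fold change was beyond 0.25 in either direction. Library totals were between 14177253 and 30052297 counts, so that 3 counts corresponded to 0.0998 to 0.212 CPM. The lowest count of any of the 8 genes in any library was 18, for *Tnfsf9*. The replicates are described as biological in the labels, but the mouse each came from is not given, and p-values measure the spread between these libraries. In RNA of a whole cell preparation, fewer cells of a type and less RNA per cell cannot be told apart.

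In B cells from PBS controls the order of the 8 transcripts was nearly the same in both tissues. In the spleen, *Icosl* was highest at 90.0 ± 4.64 CPM per kb (SD, n = 3), followed by *Tgfb1* at 59.1, *Cd40* at 37.0, *Cd274* at 19.6, *Cd86* at 6.73, *Pdcd1lg2* at 3.25, *Cd80* at 1.47, and *Tnfsf9* at 0.862 CPM per kb, and no neighbours in this order overlapped. In Peyer's patches of PBS controls, *Cd274* reached 31.2 CPM per kb, overlapping *Cd40* at 31.8, and *Tnfsf9* at 2.17 overlapped *Cd80* at 2.09. With soluble OVA the order in Peyer's patches differed. *Cd86* at 18.1 CPM per kb stood above *Cd274* at 10.3 without overlap, and *Tnfsf9* at 3.41 stood above *Pdcd1lg2* at 1.78. PD-L1 transcript was thus above CD86 transcript per length in 5 of the 6 groups, with soluble OVA in Peyer's patches as the exception.

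**Figure D1:**
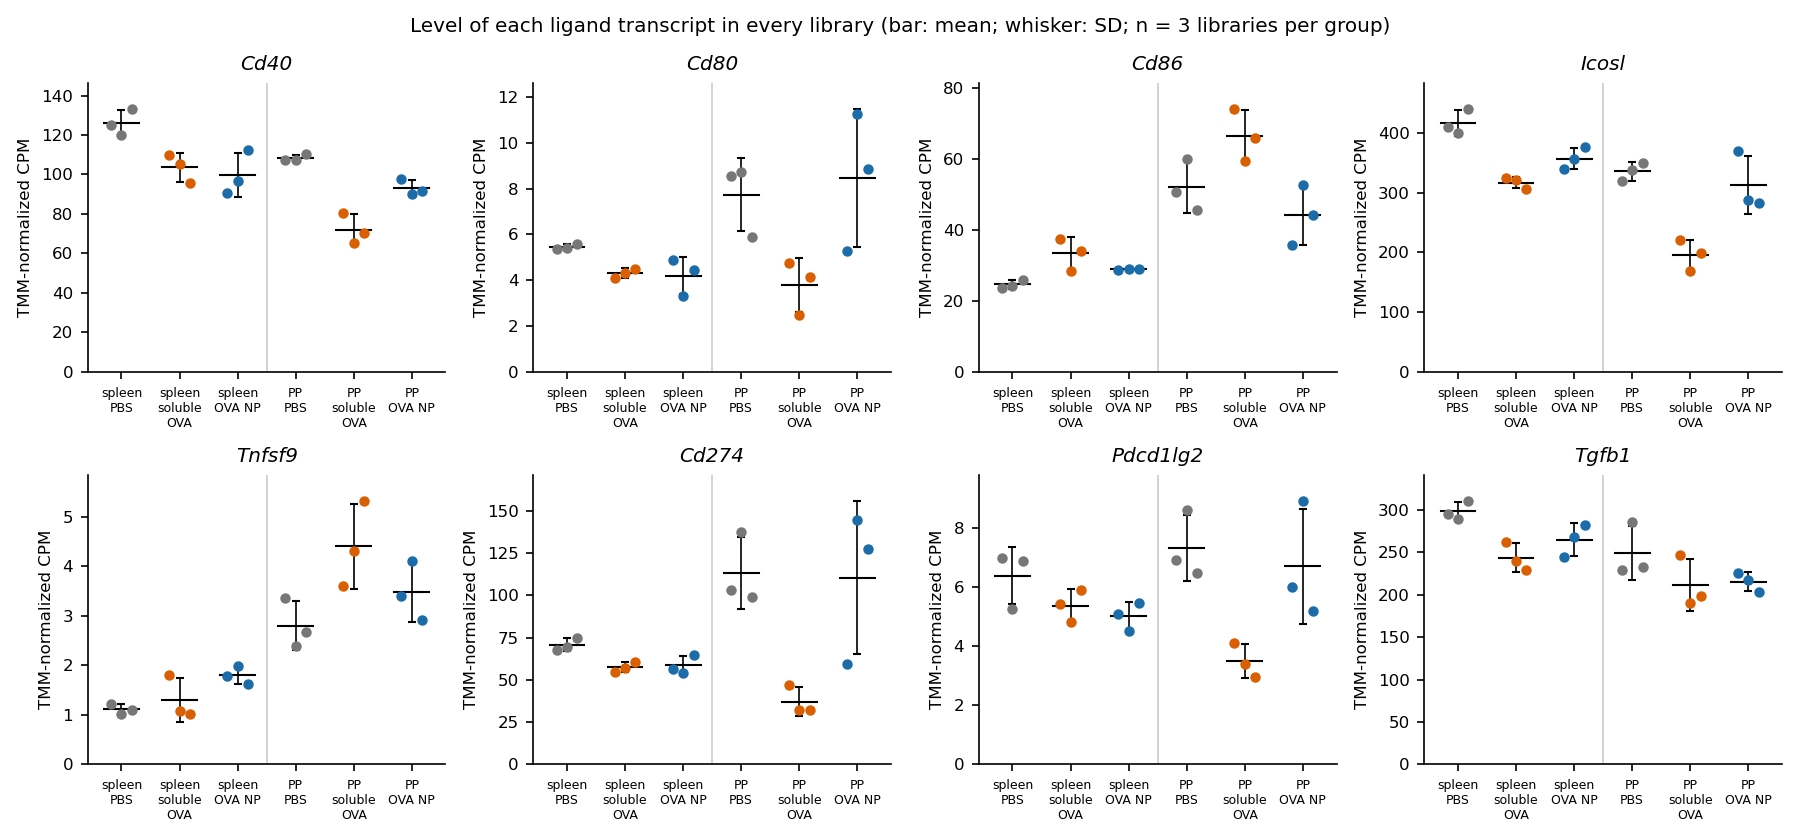
TMM-normalized CPM of each of the 8 transcripts (y axes, linear from 0, one panel per gene) in every library, by tissue and treatment (x axis). Points are libraries, horizontal bars are means, and whiskers are SD with n = 3. In Peyer's patches with soluble OVA, *Cd274* (31.9 to 47.1 CPM), *Icosl* (169 to 220), and *Cd40* (65.2 to 80.4) lie below every other group, and *Cd86* (59.4 to 74.1) has its highest mean.

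The number of the 8 genes that were DEGs is best read beside the share of all tested genes. OVA NPs changed 2 of the 8 relative to PBS in splenic B cells, against 15% of 14200 tested genes. Soluble OVA changed 4 of the 8 in the spleen, against 17.2% of 14128, and edgeR called 0 of 8 between OVA NP and soluble OVA, against 0.238% of 13840. *Icosl* and *Cd86* had an unadjusted p below 0.05 in that last comparison, and DESeq2 called 0 of 8 as well. When single libraries were left out, the spleen counts against PBS were 1 to 3 with OVA NPs and 2 to 5 with soluble OVA. For OVA NP against PBS in Peyer's patches, edgeR called 0 of 8 and 0% of 15798 genes, while 1573 genes, *Cd40* and *Tgfb1* among them, had an unadjusted p below 0.05, and DESeq2 called 149 genes and 0 of the 8. Soluble OVA changed 5 of 8 in Peyer's patches, against 27.4% of 15792, with a median log2 fold change over the 8 of −0.72 beside −0.017 over all tested genes. Between OVA NP and soluble OVA in Peyer's patches, 6 of 8 were DEGs, against 30.1% of 15599, with a median of 0.53 beside 0.025. This count was not stable, at 4, 2, and 1 without soluble OVA replicates 1, 2, and 3, and at 6, 3, and 4 without OVA NP replicates 1, 2, and 3. Both Peyer's patch comparisons with many DEGs use the same soluble OVA libraries, so their opposite signs are not separate evidence.

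**Figure D2:**
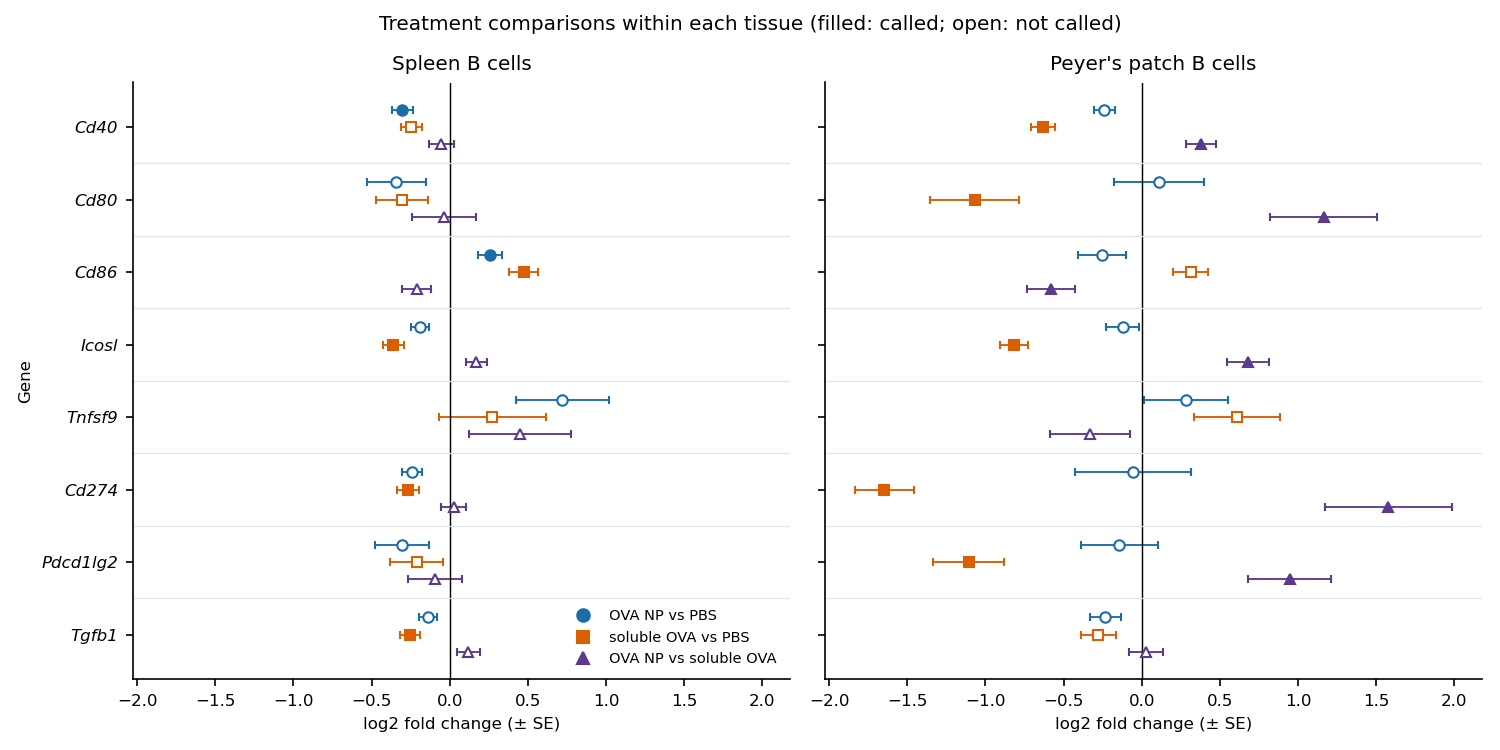
Log2 fold change with its SE (x axis) for each gene (y axis) in the 3 treatment comparisons of each tissue, from edgeR. Filled symbols are DEGs and open symbols are not. In the Peyer's patch panel, filled symbols for soluble OVA against PBS reach from −0.63 for *Cd40* to −1.65 for *Cd274*, and no symbol is filled for OVA NP against PBS.

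The ligands of PD-1 had the 2 largest changes of the 8 with soluble OVA against PBS in Peyer's patches. *Cd274* (PD-L1, ENSMUSG00000016496) spans chr19:29367455-29388095 and *Pdcd1lg2* (PD-L2, ENSMUSG00000016498) spans chr19:29410919-29471161 in GRCm38, on the same strand and 22.8 kb apart. Because both fell with soluble OVA in Peyer's patches, the 250 bases before the RefSeq start of each (GRCm38.p6, plus strand) are printed 5′ to 3′. Capitals mark a match to a loose κB-like pattern, GGGA followed after 4 bases of any kind by CC, on either strand.
Cd274, chr19:29367188-29367437: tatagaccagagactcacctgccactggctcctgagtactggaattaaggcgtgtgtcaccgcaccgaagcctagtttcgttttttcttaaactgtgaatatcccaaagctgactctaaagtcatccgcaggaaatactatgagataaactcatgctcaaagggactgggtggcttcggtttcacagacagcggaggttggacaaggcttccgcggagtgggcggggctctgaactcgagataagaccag
Pdcd1lg2, chr19:29410669-29410918: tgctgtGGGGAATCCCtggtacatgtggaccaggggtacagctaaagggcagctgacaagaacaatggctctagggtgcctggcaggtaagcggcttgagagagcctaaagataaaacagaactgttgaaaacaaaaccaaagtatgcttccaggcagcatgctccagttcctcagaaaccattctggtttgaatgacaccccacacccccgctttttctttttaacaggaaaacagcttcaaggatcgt
The *Pdcd1lg2* window holds 1 match, 234 bases before the start, and the *Cd274* window holds none. Matches to this pattern were also found before *Cd80*, *Icosl*, and *Tgfb1*. In all, 4 of the 5 genes with an entry in the promoter table had a match, as did 17.63% of all 32851 promoters in windows of this length. Because 4 bases of the pattern are free, a match need not be a κB site, and these shares do not measure κB sites. None of the 5 windows held the GAS motif TTCNNNGAA, present in 7.02% of promoters, or the ISRE core, GAAA followed after 2 bases by GAAA, present in 2.98%. The match is a description of letters and no binding was measured.

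*Cd274* was at 103, 137, and 98.7 CPM in Peyer's patch B cells of PBS controls and at 47.1, 32.4, and 31.9 CPM with soluble OVA, without overlap. The log2 fold change was −1.65 ± 0.19 (SE), 3.13-fold lower, with an adjusted p of 0.00136. It stayed a DEG in all 12 alternatives run for this comparison, between −1.81 and −1.44. With OVA NPs the libraries stood at 59.1, 145, and 127 CPM. OVA NP replicate 1 was below every PBS control and the others were within or above them, so that the log2 fold change of OVA NP against PBS was −0.053 ± 0.37 (adjusted p = 0.970), and 0.25 without that library. All 3 OVA NP libraries were above all 3 soluble OVA libraries, with a log2 fold change of 1.58 ± 0.41 and an adjusted p of 0.0438. This last call was lost without any 1 of the 3 soluble OVA libraries or without OVA NP replicate 2 or 3, with adjusted p between 0.0564 and 0.136 and log2 fold changes of 1.29 to 1.79. It was also lost without a filter on low counts (adjusted p = 0.0921). Without OVA NP replicate 1 it held, at 1.83.

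In the spleen, *Cd274* varied little. PBS controls were at 67.8, 69.7, and 75.0 CPM, soluble OVA–treated mice at 54.9, 57.1, and 60.5, and OVA NP–treated mice at 56.6, 54.1, and 64.8. Both treated groups lay below the controls without overlap. Soluble OVA gave a log2 fold change of −0.27 ± 0.069 (adjusted p = 0.0132), which was no longer a DEG without PBS replicate 3 (−0.22) or soluble OVA replicate 1 (−0.21), or in the fit to all 18 libraries (adjusted p = 0.604). OVA NPs gave −0.24 ± 0.067 (adjusted p = 0.0198), under the fold cutoff, and passed it without PBS replicate 1 (−0.27) or OVA NP replicate 3 (−0.31).

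An antisense gene, *Gm36043*, lies within *Cd274* and shares 511 bases of exon with it, which is 14.11% of the *Cd274* exon length. The counts of this gene changed with those of *Cd274* between Peyer's patch groups. It was at 22.6 to 37.9 CPM in Peyer's patches of PBS controls and at 8.88 to 11.5 CPM with soluble OVA (log2 fold change −1.69 ± 0.19, adjusted p = 4.75e-04). With OVA NPs it ranged from 14.1 to 36.8 CPM. In the spleen with soluble OVA (−0.42, adjusted p = 0.228) and between tissues with soluble OVA (−0.16, adjusted p = 0.605) it was not a DEG, although *Cd274* was. Whether the counting used strand is not given in the sources used here, so that reads of the pair may not be separable.

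*Pdcd1lg2* was lower per length than *Cd274* in every group. Its Peyer's patch levels were 6.91, 8.60, and 6.46 CPM in PBS controls, 4.10, 3.40, and 2.97 with soluble OVA, and 5.99, 8.90, and 5.20 with OVA NPs. Soluble OVA lay below both other groups, and OVA NPs overlapped PBS. Soluble OVA lowered it by a log2 fold change of −1.11 ± 0.23 (adjusted p = 0.00645), a DEG in all 12 alternatives. OVA NP was 0.95 ± 0.27 higher than soluble OVA on the log2 scale (adjusted p = 0.0259), and this call was lost without soluble OVA replicate 2 or 3 or OVA NP replicate 2 (0.63 to 0.91, adjusted p of 0.0752 to 0.120). In the spleen all 9 libraries were between 4.52 and 6.99 CPM and no treatment comparison was called.

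The costimulatory pair *Cd80* (ENSMUSG00000075122, chr16:38455561-38496335) and *Cd86* (ENSMUSG00000022901, chr16:36603869-36666081), which bind the same receptors, differed in sign in the treatment comparisons of Peyer's patches, where OVA NP against soluble OVA was the comparison in which both were DEGs. For OVA NP against PBS neither was a DEG, at 0.11 ± 0.29 for *Cd80* (adjusted p = 0.911) and −0.25 ± 0.15 for *Cd86* (adjusted p = 0.608). The sign of *Cd80* there reversed without PBS replicate 3 or OVA NP replicate 2. *Cd86* was at 50.6, 59.9, and 45.5 CPM in Peyer's patches of PBS controls, at 74.1, 59.4, and 65.7 with soluble OVA, and at 35.8, 52.6, and 44.1 with OVA NPs. Soluble OVA overlapped PBS by 1 library, with a log2 fold change of 0.31 ± 0.11 that missed the threshold (adjusted p = 0.0638), and passed it without PBS replicate 2 (0.46) or soluble OVA replicate 2 (0.44), without a filter on low counts (0.36), and with at least 10 counts in every library (0.35). OVA NP lay below soluble OVA without overlap, at −0.58 ± 0.15 (adjusted p = 0.0227). That call was lost without soluble OVA replicate 1 (−0.49) or 3 (−0.59), at an adjusted p of 0.0645 and 0.0644.

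*Cd86* was also the gene of the 8 that was called higher in the spleen with both treatments. PBS controls were at 23.6, 24.3, and 26.0 CPM, soluble OVA at 37.5, 28.4, and 34.1, and OVA NPs at 28.6, 28.9, and 29.0, and neither treated group overlapped the controls. The log2 fold change was 0.47 ± 0.092 with soluble OVA (adjusted p = 0.00257), a DEG in all 12 alternatives. With OVA NPs it was 0.26 ± 0.076 (adjusted p = 0.0256), just over the fold cutoff. The call with OVA NPs was lost without PBS replicate 1 (0.23) or 2 (0.248), without OVA NP replicate 1 (0.2498) or 2 (0.26, adjusted p = 0.0808), and with DESeq2 (adjusted p = 0.0547), without a filter (0.24), and in the fit to all 18 libraries (adjusted p = 0.287).

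*Cd80* in Peyer's patches was at 8.57, 8.74, and 5.90 CPM in PBS controls, 4.75, 2.49, and 4.14 with soluble OVA, and 5.27, 11.3, and 8.85 with OVA NPs. Soluble OVA lay below the other groups, by −1.07 ± 0.28 against PBS (adjusted p = 0.0216), while OVA NP was 1.16 ± 0.34 above soluble OVA (adjusted p = 0.0308). Between 63 and 242 reads per library supported these values. The call against PBS was lost without PBS replicate 1 (−0.98) or 2 (−0.93) or soluble OVA replicate 2 (−0.79) or 3 (−1.09), at adjusted p of 0.0625 to 0.0794. The call between OVA NP and soluble OVA was lost without soluble OVA replicate 2 or 3 or OVA NP replicate 2 or 3 (0.85 to 1.22, adjusted p of 0.0801 to 0.129). Spleen libraries were at 5.38 to 5.59 CPM in PBS controls, 4.11 to 4.51 with soluble OVA, and 3.31 to 4.86 with OVA NPs, and neither treatment was called.

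Within each library, *Cd86* exceeded *Cd80* per kb by a ratio that separated the soluble OVA Peyer's patches from the rest. The ratio was 18.7 ± 4.76 (SD, n = 3) there, between 15.8 and 24.1, and at most 9.24 in the other 15 libraries. The ratio of *Cd274* to *Cd86* per kb was 0.562 ± 0.077 with soluble OVA in Peyer's patches, 2.19 ± 0.13 in PBS controls, and 2.46 ± 0.68 with OVA NPs. In the spleen this ratio was 2.91 ± 0.012 in PBS controls, 1.77 ± 0.28 with soluble OVA, and 2.05 ± 0.19 with OVA NPs, so that both treated spleen groups were below the controls. These ratios do not depend on library scaling, and with 3 libraries against 3 an exact two-sided permutation test cannot give a p below 0.1, so they are given without a test.

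**Figure D3:**
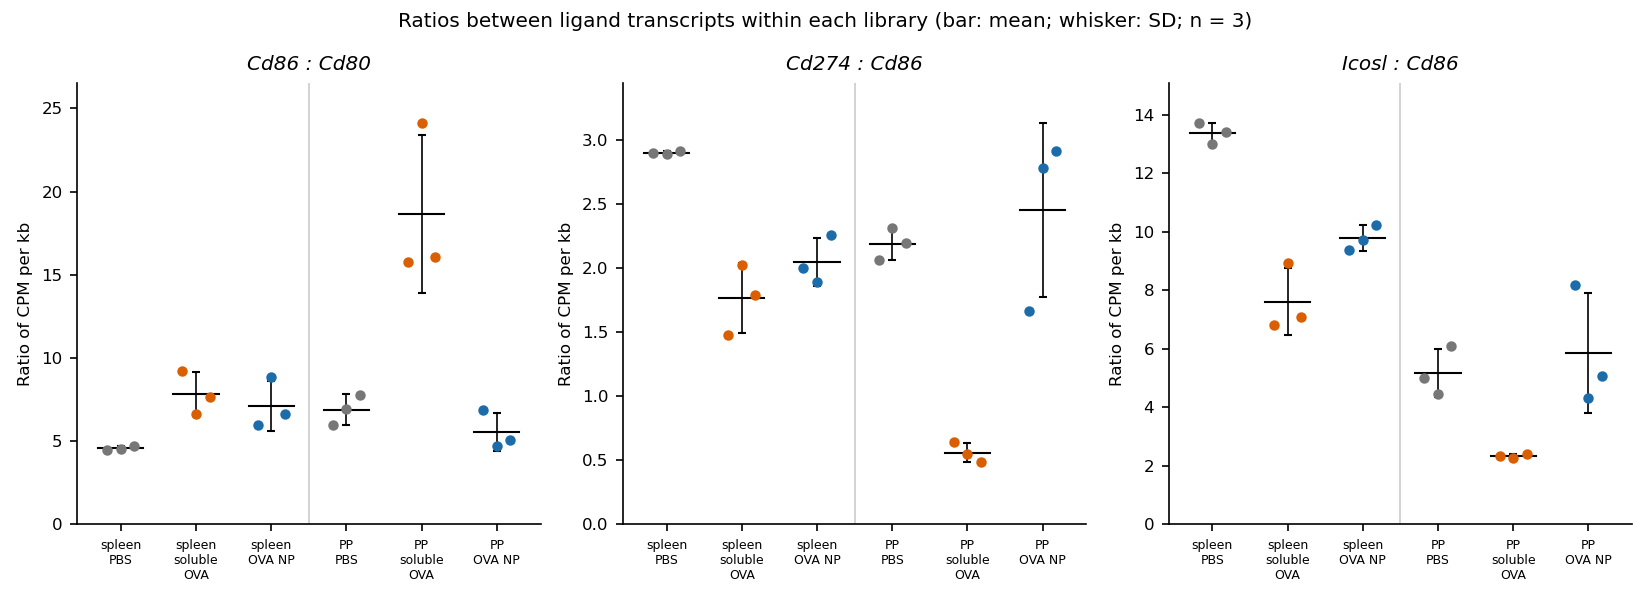
Ratios of CPM per kb between pairs of transcripts (y axes, linear from 0) in every library, by tissue and treatment (x axis). Points are libraries, bars are means, and whiskers are SD with n = 3. Soluble OVA in Peyer's patches has the highest *Cd86* to *Cd80* ratios (15.8 to 24.1) and the lowest *Cd274* to *Cd86* ratios (0.491 to 0.643) of the 6 groups.

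*Icosl* (ENSMUSG00000000732, chr10:78069302-78083913), the ligand of ICOS, had the highest mean per length of the 8 in every group, although it overlapped *Tgfb1* with soluble OVA in Peyer's patches. Its Peyer's patch libraries were at 319, 338, and 350 CPM in PBS controls, 220, 169, and 198 with soluble OVA, and 369, 287, and 282 with OVA NPs. Soluble OVA lay below both other groups, which overlapped each other. It fell with soluble OVA by a log2 fold change of −0.82 ± 0.092 (adjusted p = 3.11e-04), and OVA NP was higher than soluble OVA by 0.68 ± 0.14 (adjusted p = 0.00687), each in all 12 alternatives. In the spleen it was at 409, 399, and 440 CPM in PBS controls, 323, 320, and 305 with soluble OVA, and 339, 355, and 375 with OVA NPs, so that both treatments were below the controls without overlap. Soluble OVA gave −0.36 ± 0.065 (adjusted p = 0.00139), and OVA NPs gave −0.19 ± 0.056 (adjusted p = 0.0254), which is under the fold cutoff.

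*Cd40* (ENSMUSG00000017652, chr2:165055627-165072948) had its highest level in the spleen of PBS controls, at 125, 120, and 133 CPM. Soluble OVA–treated spleens were at 110, 105, and 95.7 CPM and OVA NP–treated spleens at 90.6, 96.8, and 112, both below the controls without overlap. OVA NPs gave a log2 fold change of −0.30 ± 0.067 (adjusted p = 0.00571), a DEG in all 12 alternatives. Soluble OVA gave −0.248 ± 0.067 (adjusted p = 0.0177), just short of the fold cutoff, which it passed without PBS replicate 2 (−0.28) or soluble OVA replicate 1 (−0.27) or 2 (−0.27).

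*Cd40* in Peyer's patches was at 107, 108, and 110 CPM in PBS controls, 80.4, 65.2, and 70.4 with soluble OVA, and 97.9, 89.9, and 91.6 with OVA NPs. The 3 groups did not overlap, with OVA NPs in between. Soluble OVA gave −0.63 ± 0.078 (adjusted p = 5.19e-04), in all 12 alternatives, whereas OVA NP against PBS gave −0.24 ± 0.067 with an adjusted p of 0.337. OVA NP was 0.38 ± 0.094 above soluble OVA (adjusted p = 0.0150), which was lost without soluble OVA replicate 2 (0.30) or 3 (0.36).

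*Tnfsf9* (4-1BBL, ENSMUSG00000035678, chr17:57105325-57107757) was the least abundant, with 18 to 127 reads per library. It was at 1.22, 1.02, and 1.09 CPM in the spleen of PBS controls, 1.80, 1.08, and 1.01 with soluble OVA, and 1.79, 1.99, and 1.62 with OVA NPs. OVA NPs lay above the controls, by a log2 fold change of 0.72 ± 0.30 that missed the threshold (adjusted p = 0.104). Peyer's patch libraries were at 3.35, 2.38, and 2.67 CPM in PBS controls, 3.60, 4.30, and 5.31 with soluble OVA, and 3.40, 4.10, and 2.92 with OVA NPs, with a log2 fold change of 0.61 ± 0.28 for soluble OVA (adjusted p = 0.134). An antisense gene, *Gm11110*, shares 192 bases of exon with it, 14.88% of its exon length, and was at 1.11 to 3.78 CPM over all libraries. The log2 fold change of *Gm11110* was 0.62 ± 0.30 with soluble OVA in Peyer's patches (adjusted p = 0.166). In the spleen with OVA NPs it was 0.14 ± 0.32 (adjusted p = 0.796). As for *Cd274* and *Gm36043*, reads of the pair may not be separable.

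*Tgfb1* (ENSMUSG00000002603, chr7:25687002-25705077) was a DEG in 1 of the 6 treatment comparisons. In the spleen it was at 295, 289, and 310 CPM in PBS controls, 262, 240, and 229 with soluble OVA, and 244, 268, and 282 with OVA NPs, and both treatments were below the controls. Soluble OVA gave −0.26 ± 0.064 (adjusted p = 0.0114), a call lost without PBS replicate 1 (adjusted p = 0.0515) or 3 (−0.22) or soluble OVA replicate 3 (−0.20) and in the fit to all 18 libraries (adjusted p = 0.0857). OVA NPs gave −0.14 ± 0.056 (adjusted p = 0.0949). The values in Peyer's patches were 229, 286, and 233 CPM in PBS controls, 247, 190, and 199 with soluble OVA, and 225, 217, and 203 with OVA NPs. The log2 fold changes against PBS were −0.28 ± 0.11 with soluble OVA (adjusted p = 0.103) and −0.23 ± 0.097 with OVA NPs (adjusted p = 0.484). Without soluble OVA replicate 1 the former was −0.36 and passed the threshold, as it did in the fit to all 18 libraries (−0.26).

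Whether a treatment acted differently in the tissues was tested with an interaction term over the 12 libraries of each treatment and its controls, at an adjusted p below 0.05. For soluble OVA against PBS, 3 of the 8 differed, and 1 to 4 when single libraries were left out, against 6.84% of 16541 genes. The labels do not say whether spleen and Peyer's patch libraries with the same number came from 1 mouse, and the fit treats them as independent. *Cd274* fell further in Peyer's patches than in the spleen by −1.37 ± 0.21 on the log2 scale (adjusted p = 0.00233), in all 18 alternatives. *Icosl* differed by −0.45 ± 0.12 (adjusted p = 0.0300) and *Cd40* by −0.38 ± 0.11 (adjusted p = 0.0489). These 2 calls were each lost without any 1 of several libraries. For *Icosl* these were spleen PBS replicates 1 and 2, spleen soluble OVA replicates 1 and 2, Peyer's patch PBS replicate 3, and Peyer's patch soluble OVA replicates 2 and 3, with differences of −0.44 to −0.35. For *Cd40* they were the same libraries with, in addition, spleen PBS replicate 3 and Peyer's patch PBS replicates 1 and 2, with differences of −0.41 to −0.31, and the call was also lost without a filter (adjusted p = 0.0541). *Pdcd1lg2* differed by −0.89 ± 0.28 but missed the threshold (adjusted p = 0.0701), and passed it with DESeq2 (adjusted p = 0.0350), with at least 10 counts in every library (adjusted p = 0.0378), and without Peyer's patch soluble OVA replicate 1 (adjusted p = 0.0491). For OVA NPs against PBS, edgeR and DESeq2 each called 0 of 8 between tissues, against 4.42% of 16619 genes in edgeR. *Cd86* alone had an unadjusted p below 0.05, at −0.49 ± 0.18 (adjusted p = 0.137), and passed the threshold without Peyer's patch OVA NP replicate 2 (−0.61).

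Peyer's patch B cells were compared with splenic B cells under each treatment. The Peyer's patches were digested with collagenase and DNase at warm temperature and the spleens were dissociated mechanically, so tissue and digestion cannot be told apart. In PBS controls, 5 of 8 were DEGs, against 45.6% of 15463 genes. *Cd86* (log2 fold change 1.11 ± 0.096, adjusted p = 1.40e-05), *Tnfsf9* (1.37 ± 0.30, adjusted p = 0.00403), *Cd274* (0.71 ± 0.11, adjusted p = 7.42e-04), and *Cd80* (0.54 ± 0.19, adjusted p = 0.0411) were higher in Peyer's patches, and *Icosl* was lower (−0.27 ± 0.062, adjusted p = 0.00463). The *Cd80* call was lost without any 1 of the 3 spleen libraries or Peyer's patch replicate 1 or 2 (0.45 to 0.54), without a filter (0.50), and in the fit to all 18 libraries (0.52). The *Icosl* call was lost without spleen replicate 3 or Peyer's patch replicate 1 and with at least 10 counts in every library (each −0.24). *Tgfb1*, at −0.22 ± 0.079, passed the fold cutoff without Peyer's patch replicate 2 (−0.33) or without a filter (−0.26).

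With soluble OVA, 6 of 8 differed between the tissues, against 51.1% of 15415 genes. *Cd86* (0.95 ± 0.11, adjusted p = 6.69e-05) and *Tnfsf9* (1.70 ± 0.32, adjusted p = 0.00163) were again higher in Peyer's patches. *Cd274* was lower there (−0.68 ± 0.14, adjusted p = 0.00348), the opposite sign to PBS controls, and *Icosl* (−0.74), *Cd40* (−0.57), and *Pdcd1lg2* (−0.66) were lower too. The *Pdcd1lg2* call was lost without any 1 of the 3 spleen libraries or Peyer's patch replicate 2 or 3 (−0.72 to −0.55) and without a filter (adjusted p = 0.0523). *Tgfb1* (−0.25, adjusted p = 0.0541) passed the threshold without Peyer's patch replicate 1 (−0.34).

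With OVA NPs, 4 of 8 differed between the tissues, against 37.1% of 15466 genes. *Cd80* (1.02 ± 0.29, adjusted p = 0.0197), *Tnfsf9* (0.96 ± 0.27, adjusted p = 0.0180), and *Cd86* (0.63 ± 0.13, adjusted p = 0.00443) were higher in Peyer's patches and *Tgfb1* was lower (−0.29 ± 0.066, adjusted p = 0.00685). *Cd274* was 0.93 ± 0.36 higher with an adjusted p of 0.101, a value that passed with DESeq2 (adjusted p = 0.0349) and in the fit to all 18 libraries (adjusted p = 0.0166), and without Peyer's patch replicate 1 it was 1.22 higher with an adjusted p of 6.81e-07. Without that library *Icosl* was lower in Peyer's patches, at −0.32. The *Cd80* call was lost without spleen replicate 2 or 3 or Peyer's patch replicate 2 or 3 (0.76 to 1.04), the *Tnfsf9* call without spleen replicate 3 (0.87) or Peyer's patch replicate 2 (0.83), and the *Tgfb1* call without Peyer's patch replicate 3 (−0.24). *Cd86* and *Tnfsf9* were therefore above the spleen in Peyer's patches under all 3 treatments.

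Genes of the same pathways were described from lists. Over all tested genes, 13.9% were called lower and 13.5% higher with soluble OVA against PBS in Peyer's patches, which is the background for each count. With soluble OVA in Peyer's patches, 13 of 24 genes of CD40 signaling to NF-κB fell and 1 rose relative to PBS, with a list median of −0.41. Among those that fell were *Cd83*, an activation marker that stabilizes MHC-II and CD86 on the surface (−1.33 ± 0.19, adjusted p = 0.00393), *Tnfaip3*, a feedback inhibitor of NF-κB (−1.24), and *Nfkbia*, which encodes the inhibitor IκBα and is itself an NF-κB target (−0.80 ± 0.070, adjusted p = 1.09e-04). Of 27 STAT and IRF factors and receptors linked to the PD-1 ligands, 14 fell and 0 rose. They included *Irf4* (−1.30 ± 0.23), *Stat4* (−1.24 ± 0.23), and *Ifnar1*, a chain of the type I interferon receptor (−1.04 ± 0.10). Of 23 genes of TGF-β processing and signaling, 10 fell and 1 rose, which was *Lrrc32*, the protein that tethers latent TGF-β to the cell surface (1.40 ± 0.15, adjusted p = 2.48e-04). Between OVA NP and soluble OVA, which shares the soluble OVA libraries and in which 13.8% of all tested genes were called higher and 16.3% lower, 10 of 24 NF-κB genes were higher and 1 lower, and 13 of 27 STAT and IRF genes were higher and 0 lower.

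Counts for the other ligand and surface lists, for the same comparison, included several near the background of 13.9% lower. Of 18 tested genes related to the B7 family, 3 fell, among them *Cd84* (−0.88) and *Btla* (−0.67), and 2 rose, among them *Sema7a* (0.74). Of 12 tested TNF-family genes 2 fell and 0 rose, and the B7, TNF, and stability counts that fell (3 of 18, 2 of 12, and 2 of 10) were each near that share. Of 12 other activation markers 8 fell and 2 rose, and *Fcer2a*, the low-affinity IgE receptor CD23, fell by 1.61 on the log2 scale and the early activation marker *Cd69* by 1.33. Among 12 tested cytokine genes 5 fell, including the chemokine *Ccl4* (−2.21) and *Il12a* (−1.27), and 1 rose, *Lgals1*, which encodes galectin-1 (1.01). Of 10 genes that control the stability of CD86 or PD-L1 protein, 2 fell and 0 rose, and these were *Cmtm6*, which protects PD-L1 from degradation (−0.42), and *B4galt1* (−0.68). Of 8 tested genes for receptors that bind the ligands, *Icos* (−0.94) and *Tgfbr2* (−0.49) fell and *Tgfbr1* rose (0.40). *Tgfbr2* was at mean levels of 337 CPM with PBS and 247 with soluble OVA, and *Tgfbr1* at 78.6 and 107. In the same libraries all 12 T cell markers summed to at most 31.2 CPM.

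In the spleen fewer of all tested genes were called, 6.72% lower and 10.5% higher with soluble OVA and 6.35% lower and 8.6% higher with OVA NPs. With soluble OVA, 6 of 24 NF-κB genes fell and 2 rose, and with OVA NPs 5 fell and 2 rose. The 2 that rose were *Cd83* (1.26 ± 0.074 with soluble OVA and 0.96 ± 0.067 with OVA NPs) and *Fas* (1.53 ± 0.20 and 1.08 ± 0.18). *Fas* is also on the list of germinal center markers below, so its rise is counted in both lists. *Cd83* thus had opposite signs in the spleen and in Peyer's patches with soluble OVA. Among the 26 tested STAT and IRF genes, 6 fell and 2 rose with soluble OVA, and 2 fell and 2 rose with OVA NPs. *Marchf1*, the ubiquitin ligase that removes CD86 from the surface, fell with OVA NPs (−0.33 ± 0.056, adjusted p = 9.04e-04) and was at −0.080 ± 0.064 with soluble OVA. *Havcr1*, which encodes the surface protein TIM-1, rose in the spleen with OVA NPs (1.28 ± 0.17) and soluble OVA (1.93 ± 0.17). For OVA NP against PBS in Peyer's patches, edgeR called 0 of all 15798 tested genes, and therefore 0 genes of the 9 lists.

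Markers of other cells were summed in each library to see what moved beside the ligands. The 10 B cell markers were at 6933 to 11637 summed CPM in all 18 libraries, the identity the labels give, with none at 0. The 12 germinal center B cell markers were at 264 to 403 CPM in spleens of PBS controls, at 938 to 1163 with soluble OVA, and at 868 to 1040 with OVA NPs. Their Peyer's patch sums were 2395 to 2890 CPM in PBS controls, 4756 to 4907 with soluble OVA, and 1915 to 2861 with OVA NPs. The largest part of these sums in every group was *Mki67*. Its mean levels were 152, 461, and 462 CPM in the spleen with PBS, soluble OVA, and OVA NPs. In Peyer's patches they were 744, 1726, and 757 CPM in the same order. Of these 12 markers, 11 rose and 0 fell with soluble OVA in Peyer's patches, where 13.5% of all tested genes rose, beside the fall of *Cd274*, *Pdcd1lg2*, *Cd80*, *Icosl*, and *Cd40*, and 5 of 10 B cell markers and 5 of 9 marginal zone markers fell. OVA NP replicate 1, the Peyer's patch library with low *Cd274* and *Cd80*, had the lowest germinal center sum of its group, 1915 CPM beside 2861 and 2759, and the highest T cell sum. In the spleen, all 12 germinal center markers rose with soluble OVA, and 9 of 11 tested rose with OVA NPs. Their part in the ligand values was not tested.

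**Figure D4:**
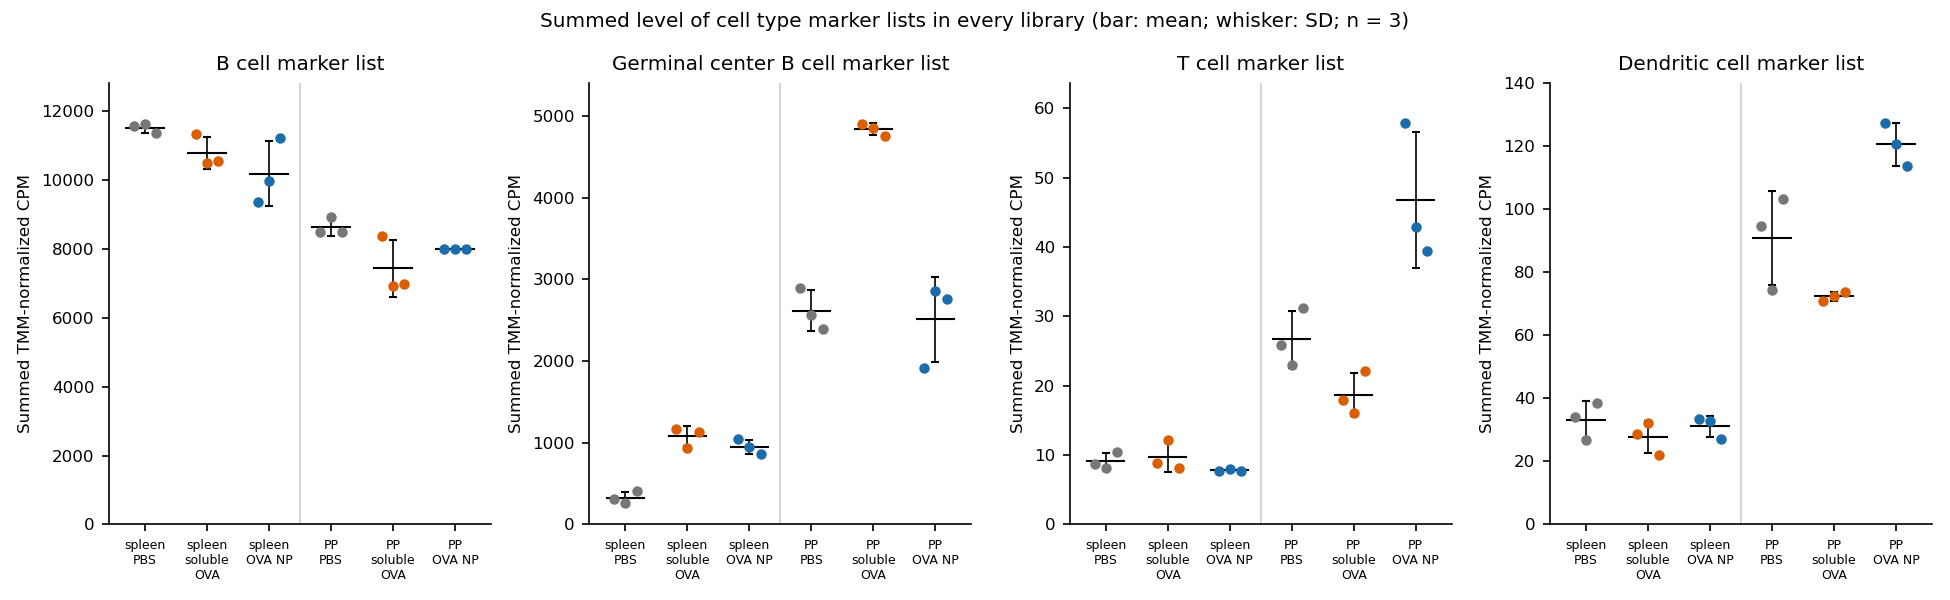
Summed TMM-normalized CPM of 4 marker lists (y axes, linear from 0) in every library, by tissue and treatment (x axis). Points are libraries, bars are means, and whiskers are SD with n = 3. Germinal center markers are highest in Peyer's patches with soluble OVA (4756 to 4907 CPM), and T cell and dendritic cell markers, far lower in scale, are highest in Peyer's patches with OVA NPs.

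Cells that also carry these ligands left traces in the libraries. The 12 T cell markers summed to 7.73 to 12.2 CPM in the spleen, and in Peyer's patches to 23.0 to 31.2 in PBS controls, 16.0 to 22.1 with soluble OVA, and 39.4 to 57.9 with OVA NPs. The 11 dendritic cell markers were at 22.1 to 38.7 CPM in the spleen, and in Peyer's patches at 74.3 to 103, 70.8 to 73.9, and 114 to 127 in the same order. The 14 monocyte and macrophage markers were at 153 to 222 CPM with PBS in Peyer's patches, 139 to 172 with soluble OVA, and 214 to 321 with OVA NPs, and at 49.1 to 271 in the spleen, where *C1qa* was at 0 in PBS controls and with soluble OVA. Epithelial markers ranged from 244 to 1264 CPM in Peyer's patches and from 14.2 to 16.7 in the spleen. Natural killer cell markers summed to at most 44.6 CPM in any library, and *Klre1* was at 0 in spleens of OVA NP–treated mice. Neutrophil markers were at 166 to 568 CPM in the spleen, where *Ly6g* was at 0 in both treated groups. The largest part there was *Mpo*, at mean levels of 169, 258, and 266 CPM with PBS, soluble OVA, and OVA NPs. In Peyer's patches neutrophil markers were at 1.42 to 4.15 CPM, except in OVA NP replicate 3, at 54.4. Stromal cell markers were at 215 to 291 CPM with PBS in Peyer's patches, 106 to 125 with soluble OVA, and 165 to 205 with OVA NPs, and at 160 to 248 in the spleen, where *Ccl19* was at 0. Most of these sums was *Pecam1*, at mean levels of 239, 194, and 176 CPM in the spleen with PBS, soluble OVA, and OVA NPs, and 167, 86.8, and 144 in Peyer's patches. *Col3a1* was at 0.056, 0.14, and 0.16 CPM in the spleen and at 21.0, 7.24, and 8.87 in Peyer's patches, in the same order. Plasma cell markers were at 522 to 827 CPM in the spleen and 1179 to 1459 in Peyer's patches. The share of counts from mitochondrial genes was 9.08% to 9.80% in Peyer's patches with OVA NPs, 5.41% to 7.67% with PBS, 4.97% to 6.02% with soluble OVA, and 2.82% to 3.41% in the spleen. Of the marker genes for T cells tested in Peyer's patches, edgeR called 0 of 12 with OVA NPs and 0 of 11 with soluble OVA against PBS. With OVA NPs it called 0 of all 15798 tested genes, so that count cannot tell whether T cell markers changed. The T cell list had a median log2 fold change of 0.78 with OVA NPs (−0.0074 over all tested genes) and −0.71 with soluble OVA (−0.017 over all tested genes). Between OVA NP and soluble OVA in Peyer's patches, where *Cd274*, *Pdcd1lg2*, *Cd80*, *Icosl*, and *Cd40* were higher, 9 of 12 T cell markers, 9 of 11 dendritic cell markers, and 8 of 13 tested monocyte and macrophage markers were higher too, beside 13.8% of all tested genes, and 10 of 12 germinal center markers were lower, beside 16.3%. The part of these cells and of RNA quality in the ligand values was not tested.

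For the 7 genes called in any treatment comparison, the 3 genes with the most similar pattern were found by Pearson's r of log2 CPM over the 18 libraries, after each tissue's mean was subtracted, among 9998 genes. These had a mean of at least 5 CPM and a symbol, and symbols that start with Gm and a digit or end in Rik were left out. *Cd274* was closest to *Vps37b* (r = 0.9756), *Zbtb10*, and *Neat1*, and *Cd40* to *Lsp1* (r = 0.9759), *B4galnt1*, and *Crlf2*. *Icosl* was closest to *Ldb1* (r = 0.9727), *Gimap5*, and *Arhgef3*. *Cd86* was closest to *Stt3b* (r = 0.9432), *Atad1*, and *Sp140*, *Cd80* to *Nabp1* (r = 0.9337), *Gpr132*, and *Maff*, *Pdcd1lg2* to *Cbarp* (r = 0.9263), *Fbxl20*, and *Shank1*, and *Tgfb1* to *Rab31* (r = 0.9265), *Tprgl*, and *Pacs1*. These values are descriptions over libraries that share treatment groups and depth, and none of the 7 ligands was among the 3 genes closest to another. *Tnfsf9*, with a mean of at most 4.40 CPM in any group, and *Gm36043* were outside the genes compared and could not appear.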

How the data were processed

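Per the processing notes, the authors used Cutadapt 2.3 for trimming, STAR 2.7.8a for alignment (build GRCm38), and RSEM 1.3.3 for gene counts. The deposited values are expected counts without normalization, and all are whole numbers (0 exceptions). They were used as deposited for all 18 libraries, grouped by the tissue and treatment in the labels. Exon lengths, positions, and overlaps came from GENCODE M21 on GRCm38, which is another annotation release than theirs, and promoters came from RefSeq.

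Each comparison was fitted to its own libraries with edgeR 4.0.16 in R 4.3.3 (filterByExpr with a minimum count of 10 and minimum total of 15, TMM, robust quasi-likelihood F test, Benjamini-Hochberg adjustment over all tested genes). SE was derived from the F statistic. Cutoffs followed the paper's methods, while the authors used DESeq2, run here as version 1.42.0. Alternatives were DESeq2, a fit to all 18 libraries, RLE normalization, no filter, at least 10 counts in every library, a replicate block, levels without TMM, and leaving out each library. The tests were also run on simulated counts in which every gene had the same dispersion. The spread between the real libraries differs from that setting, so the simulation does not check the calls reported here.

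The 8 genes and all lists were chosen with earlier results of these data known. List genes named are from the 3 called genes with the largest fold changes per list and comparison at a mean of at least 1 CPM, and not all are reported. *Gm36043* and *Gm11110* were named because they overlap a ligand gene, and *Marchf1* with soluble OVA for comparison. Intervals of counting error are not shown, and 3 counts is the floor used.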

Additional observations from a re-analysis of the deposited data

Results flagged for a closer look

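The response to soluble OVA differed between Peyer's patch and splenic B cells for 3 of the 8 ligands by the interaction of tissue and treatment in edgeR's quasi-likelihood test with Benjamini-Hochberg adjustment. Of all 16541 tested genes, 6.84% were called. Only the Peyer's patches were digested with enzymes, so tissue and digestion cannot be told apart. *Cd274* differed by −1.37 on the log2 scale (adjusted p = 0.00233), with −1.65 in Peyer's patches and −0.27 in the spleen. *Icosl* differed by −0.45 (adjusted p = 0.0300), with −0.82 and −0.36, and *Cd40* by −0.38 (adjusted p = 0.0489), with −0.63 and −0.25. The *Icosl* call was lost in 7 of the 18 alternatives and the *Cd40* call in 12, while the *Cd274* call held in all 18.

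The gene with the largest such difference in each pathway list was looked at in the same test. With soluble OVA, *Cd83* differed by −2.59 (adjusted p = 5.36e-05), since it fell by 1.33 in Peyer's patches and rose by 1.26 in the spleen. *Havcr1* differed by −1.88 (adjusted p = 6.25e-05), with 0.044 in Peyer's patches and 1.93 in the spleen. *Fcer2a* differed by −1.36 (adjusted p = 9.06e-05), *Nrros*, which encodes a protein that anchors latent TGF-β, by −1.22 (adjusted p = 1.07e-04), *Ifngr2*, a chain of the interferon-γ receptor, by −1.08 (adjusted p = 4.19e-05), and *B4galt1* by −0.80 (adjusted p = 0.00949). *Ccl4* differed by −6.13 (adjusted p = 0.0212), but it was at 0 CPM in spleens of PBS controls, so that this fitted value is not a bound. With OVA NPs, *Havcr1* differed by −1.59 (adjusted p = 0.00535), *Cd83* by −1.40 (adjusted p = 0.0133), and *Nt5e*, which encodes CD73, by −0.87 (adjusted p = 0.0259). Groups of 3 libraries are too small for the test of single outlying libraries.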

How the results depend on the processing

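Over the alternatives for the single ligands and comparisons, 1015 values kept their direction and side of the threshold, 83 lost the threshold, 25 gained it, and 28 changed sign. The labels do not say what a shared replicate number marks. In no comparison did all 3 same-numbered pairs have residuals correlated above 0.1, which does not show that the libraries are unpaired, and they were fitted without pairing. With the replicate number as a block, 2 of the 8 ligands stayed DEGs between OVA NP and soluble OVA in Peyer's patches, in place of 6. The calls lost there were *Cd274* (adjusted p = 0.169), *Cd80* (0.127), *Cd86* (0.0975), and *Pdcd1lg2* (0.0666). The block also ended the calls of *Cd80* with soluble OVA against PBS in Peyer's patches (adjusted p = 0.0650), *Cd80* between tissues with OVA NPs (0.0537), and *Cd40* in the interaction with soluble OVA (0.0699), and *Tgfb1* between tissues with soluble OVA became a DEG (−0.25), which made 7 ligands in place of 6. Over all genes the count was 3119 in place of 4697 there and 429 in place of 734 for the interaction with OVA NPs. Ligands called for OVA NP against PBS in the spleen were 1 with DESeq2 and 1 with all 18 libraries in one fit, in place of 2, and for soluble OVA against PBS 2 with all 18 libraries, in place of 4. *Tgfb1* between OVA NP and soluble OVA in Peyer's patches was −0.0043 with at least 10 counts in every library, and its interaction with soluble OVA was 0.022 without a filter.

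When each library was left out, the number of ligands called was 1 to 3 for OVA NP and 2 to 5 for soluble OVA against PBS in the spleen, 1 to 6 for OVA NP against soluble OVA in Peyer's patches, 3 to 5 for the tissues with PBS and 2 to 6 with OVA NPs, and 0 to 1 and 1 to 4 for the interactions with OVA NPs and soluble OVA. Log2 fold changes that crossed 0 ranged from −0.035 to 0.43 for *Tnfsf9* with soluble OVA in the spleen. Between OVA NP and soluble OVA in the spleen they ranged from −0.13 to 9.83e-05 for *Cd40*, −0.16 to 0.11 for *Cd80*, and −0.040 to 0.083 for *Cd274*. For OVA NP against PBS in Peyer's patches they were −0.15 to 0.36 for *Cd80*, −0.30 to 0.25 for *Cd274*, and −0.41 to 0.011 for *Pdcd1lg2*. Further ranges were −0.057 to 0.16 for *Tgfb1* between OVA NP and soluble OVA in Peyer's patches and −0.40 to 0.0050 for *Cd80* between tissues with soluble OVA. For the interaction with OVA NPs they were −0.036 to 0.18 for *Icosl*, −0.0092 to 0.52 for *Cd274*, −0.047 to 0.34 for *Pdcd1lg2*, and −0.13 to 0.033 for *Tgfb1*, and with soluble OVA −0.12 to 0.11 for *Tgfb1*. None of these was called.

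The count of all DEGs between OVA NP and soluble OVA in the spleen was 33, 113 with DESeq2, 230 without a filter, 14 with all 18 libraries, and 7, 10, and 0 without soluble OVA replicate 1, soluble OVA replicate 3, and OVA NP replicate 2. For OVA NP against PBS in Peyer's patches it was 0, 149 with DESeq2, 146 without a filter, 24 with all 18 libraries, 8 without PBS replicate 3, and 2 without OVA NP replicate 3. For the interactions DESeq2 gave 1290 in place of 734 with OVA NPs and 1816 in place of 1131 with soluble OVA. The former was as low as 291, without spleen OVA NP replicate 1, and the latter 655 and 700 without spleen PBS replicate 1 and 2. The cause of these changes was not tested. *Tnfsf9* had 18 to 127 reads per library, and *Cd80* 60 to 242, which limits the precision of both.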
